A study of Rattus norvegicus with 6 samples.

Results

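This account covers 7 genes of the p53 network in rat bone marrow: Mdm2 and Mdm4, which encode the main inhibitors of p53, and Ccng1, Phlda3, Sesn1, Zmat3 and Tp53inp1, which are transcribed under p53 control. They were chosen by symbol, 7 of the 17172 genes and loci listed, and all of them had counts in all 6 libraries and passed the expression filter (13547 genes tested). The p53 gene itself is not analysed here. Poly(A) RNA was sequenced from marrow cells of 6 ACI rats, an inbred strain, aged 6 to 8 weeks. A group of 3 rats received phenylhydrazine (PHZ), a compound that destroys red cells and produces haemolytic anaemia, at 100 mg/kg into the peritoneum, and the other group of 3 received phosphate-buffered saline (PBS) by the same route. All were killed 36 h later, total marrow of the hind legs was taken, and cells bearing c-kit, a receptor tyrosine kinase of progenitors and early erythroid cells, were captured with a biotinylated antibody and streptavidin particles without a column. Each group was labelled as 2 females and 1 male, with 1 library per rat.

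The p53 protein is a transcription factor that accumulates when DNA is damaged, ribosome assembly is disturbed or nucleotides run short. In unstressed cells MDM2, a ubiquitin ligase, marks it for degradation, and MDM4, a relative of MDM2 with little ligase activity of its own, binds and blocks its activation domain. Mdm2 is itself a p53 target, so the pair forms a negative feedback loop, and loss of either inhibitor is lethal to the embryo unless p53 is removed too. Red cell precursors are known for their sensitivity to p53, since defects of ribosome assembly cause anaemia through it. Among the other genes, Ccng1 encodes cyclin G1, which recruits a phosphatase to MDM2. Sesn1 encodes sestrin 1, an inhibitor of the growth kinase mTORC1, and Phlda3 encodes a small protein that competes with AKT for membrane lipids. Zmat3 encodes a zinc finger protein that binds RNA, and Tp53inp1 encodes a stress protein with roles in autophagy and in p53 phosphorylation.

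Libraries held 13196249 to 19492793 expected counts, the read numbers estimated per gene. Eif2s3y, a Y-linked gene, went against the sex label in 3 libraries (PBS replicates 1 and 2 and PHZ replicate 3), so the labels of sex could not be relied on. Kit was present in all libraries, at 8.36 to 15.5 FPKM, a level scaled for library size and transcript length, while Cd34, a marker of early progenitors, had 0.07 to 0.66 FPKM. Transcripts of more mature cells were abundant in every library. Globin genes took 9.57% to 22.0% of counts, and 7 of 7 neutrophil markers summed to 22239 to 46553 FPKM in PBS and 9647 to 18468 FPKM in PHZ libraries. S100a8 and S100a9 dominated the neutrophil sums, and none of the 7 markers was called (edgeR), where 13.2% of all genes tested were called. Some marker lists of other lineages differed between the groups. The B lineage genes Pax5 and Blnk fell (edgeR, where 4.17% of all genes tested fell), with log2 fold changes of -1.84 and -1.68. Of 6 T and NK lineage markers 4 fell, with a median log2 fold change of -2.09 and sums of 60.9 to 196 and 74.4 to 102 FPKM. Nkg7, which was not called, dominated these sums, at 44.3 to 171 FPKM in PBS and 67.5 to 97.8 FPKM in PHZ libraries. Of 7 tested erythroid markers 3 rose (edgeR, where 8.99% of all genes tested rose), namely Gata1, Klf1 and Tfrc, with log2 fold changes of 1.23, 1.48 and 1.74, while the sum of the list, which the globin Hba1 dominates, overlapped at 130127 to 268615 and 111299 to 279369 FPKM. No listed T, NK or erythroid marker was at 0 in any library. In such bulk samples, fewer cells of a type and less RNA per cell cannot be told apart.

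Promoter windows from RefSeq (build GRCr8, 250 bases before to 50 after the start of transcription) were found for 5 of the 7 genes. They were searched on both strands for the consensus p53 decamer, the unit that p53 response elements hold in pairs, and a match was present in 7.98% of all 33469 windows. Ccng1 and Sesn1 each held 1 match, starting 232 and 172 bases before the transcription start, and Mdm2, Mdm4 and Phlda3 held none in this window. The windows of Ccng1 and Sesn1 are shown because they hold the match, which is in capitals, and that of Mdm2 because the results on the feedback pair turn on it. They lie at chr10:25684827-25685126 (minus strand), chr20:46948469-46948768 (plus strand) and chr7:55200742-55201041 (minus strand). The promoter of Mdm2 that responds to p53 is known to lie in its first intron, and whether the window shown belongs to that promoter was not analysed here.
Ccng1: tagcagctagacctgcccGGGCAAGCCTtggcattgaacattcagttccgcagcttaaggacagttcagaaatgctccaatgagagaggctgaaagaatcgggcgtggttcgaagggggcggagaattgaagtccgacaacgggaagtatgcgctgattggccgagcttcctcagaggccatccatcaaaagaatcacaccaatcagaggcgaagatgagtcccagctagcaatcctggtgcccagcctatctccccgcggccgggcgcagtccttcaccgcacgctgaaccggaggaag
Sesn1: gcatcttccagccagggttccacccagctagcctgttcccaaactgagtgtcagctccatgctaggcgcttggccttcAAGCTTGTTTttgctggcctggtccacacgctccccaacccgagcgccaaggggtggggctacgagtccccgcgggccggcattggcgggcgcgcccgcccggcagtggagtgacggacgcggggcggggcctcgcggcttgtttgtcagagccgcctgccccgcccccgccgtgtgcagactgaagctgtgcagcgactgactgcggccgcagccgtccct
Mdm2: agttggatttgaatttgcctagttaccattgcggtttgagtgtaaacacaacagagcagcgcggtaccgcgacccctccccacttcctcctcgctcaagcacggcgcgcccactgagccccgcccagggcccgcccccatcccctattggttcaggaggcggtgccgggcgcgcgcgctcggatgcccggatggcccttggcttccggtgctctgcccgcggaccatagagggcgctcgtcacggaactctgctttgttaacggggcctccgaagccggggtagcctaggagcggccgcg

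No member was called in PHZ against PBS libraries (edgeR quasi-likelihood test, adjusted p under 0.05: 0 of 7), where 13.2% of all genes tested were called. At an unadjusted p under 0.05 there were 2 members, Mdm2 and Tp53inp1, against 34.1% of all genes. DESeq2 called the same 2 genes, where it called 26.2% of all genes, and limma on FPKM called none. For 3 members, Mdm2, Mdm4 and Tp53inp1, the PBS and PHZ counts scaled to library size did not overlap, and they were lower in PHZ. Of all genes tested, 41.7% did not overlap, 19.2% with the lower values in PHZ. The median log2 fold change of the 7 genes was -0.31, beside -0.042 for all genes tested.

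Mdm2 (Entrez gene 314856) stood at 178, 115 and 127 CPM, counts scaled to library size, in the PBS libraries and at 102, 70.7 and 68.1 CPM in the PHZ libraries. Every PHZ value lay below every PBS value, and PHZ replicate 1 was the highest of its group. The means were 140 ± 33.4 CPM in PBS and 80.2 ± 18.8 CPM in PHZ (SD, n = 3). The estimate was 1.75-fold lower in PHZ, a log2 fold change of -0.80 (SE 0.23, 95% interval -1.36 to -0.25), with an edgeR adjusted p of 0.0653. The gene passed the threshold with DESeq2 (adjusted p = 0.00755), in edgeR without PHZ replicate 1 (adjusted p = 0.0415, with 12.6% of all genes called) and in edgeR without both libraries numbered 1 (adjusted p = 0.0199, with 21.6% of all genes called), the last an alternative chosen after the data were seen. In the 18 alternatives tried the estimate ran from -1.01 to -0.57.

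Mdm4 (Entrez gene 304798) stood at 160, 165 and 184 CPM in PBS and at 142, 119 and 148 CPM in PHZ libraries. The PHZ values were again all below the PBS values, but by little. The estimate was 1.24-fold lower in PHZ, a log2 fold change of -0.31 (SE 0.14, 95% interval -0.64 to 0.015; edgeR adjusted p = 0.161). Mdm4 was called in none of the 18 alternatives, with adjusted p-values from 0.0749 upwards. Its CPM varied little between rats, with a coefficient of variation of 7.58% in PBS and 11.1% in PHZ, beside 23.8% and 23.4% for Mdm2. In FPKM, Mdm4 spread more in PHZ, at 20.9 ± 6.37 beside 25.9 ± 1.02 in PBS (SD, n = 3). Mdm2 had 27.6 ± 8.81 FPKM in PHZ. The FPKM values of Mdm4 overlapped between groups, since PHZ replicate 1 (27.28) lay above every PBS value.

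Per transcript length, Mdm2 was the more abundant of the pair in every library. The Mdm2 level divided by the Mdm4 level, both in FPKM, was 2.35, 1.69 and 1.62 in PBS and 1.38, 1.49 and 1.12 in PHZ libraries. All 3 PHZ ratios were below all 3 PBS ratios. The mean ratio was 1.89 ± 0.402 in PBS and 1.33 ± 0.194 in PHZ (SD, n = 3), and on the log2 scale the difference of PHZ minus PBS was -0.49 (exact permutation test, two-sided, p = 0.1, the smallest p that 3 libraries against 3 can give). On the CPM scale, which ignores length, the difference was also -0.49, but the ratios of the 2 groups overlapped (exact permutation test, two-sided, p = 0.300).

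**Figure D1:**
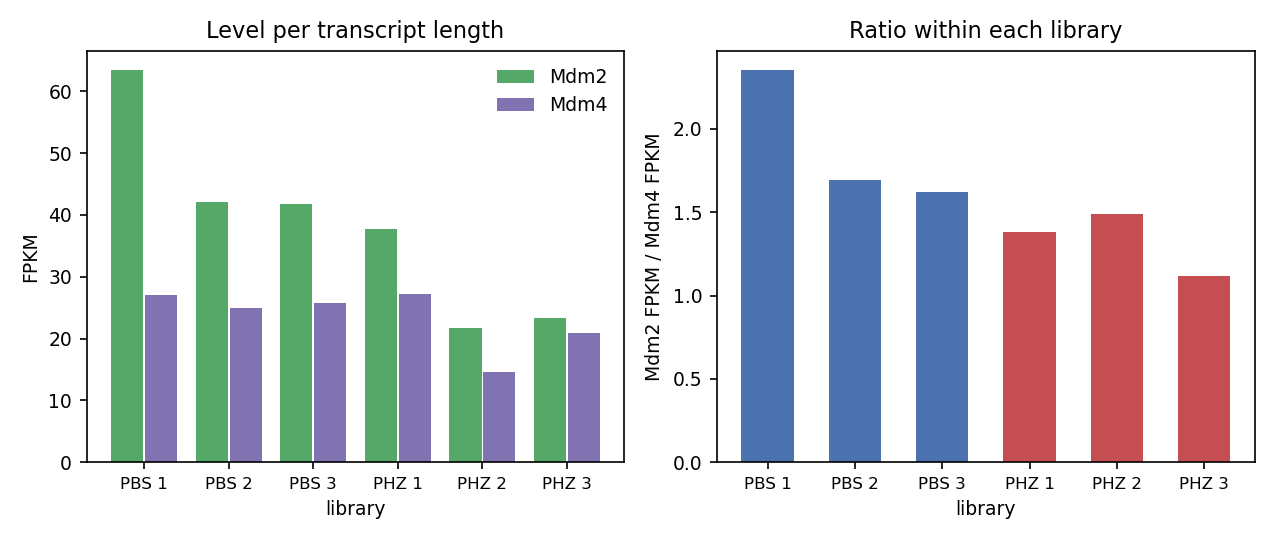
Levels of Mdm2 and Mdm4 in FPKM (left, linear axis from 0) and their ratio (right) in each of the 6 libraries, PBS in blue and PHZ in red on the right. The ratio is 1.62 to 2.35 in PBS and 1.12 to 1.49 in PHZ libraries.

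Tp53inp1 (Entrez gene 297822) showed the largest estimate of the 7 and one of the widest spreads. It stood at 273, 113 and 122 CPM in PBS and at 82.1, 58.1 and 99.0 CPM in PHZ libraries. PBS replicate 1 was 2.32 times the mean of the other PBS libraries, and the PHZ values lay below all PBS values. The estimate was 2.13-fold lower in PHZ, a log2 fold change of -1.09 (SE 0.39, 95% interval -2.04 to -0.14; edgeR adjusted p = 0.109). Without PBS replicate 1 the estimate was -0.56 (edgeR adjusted p = 0.156), and DESeq2 on all libraries gave an adjusted p of 0.0190. The authors' deposited table marks Tp53inp1 as lower in PHZ, with a log2 ratio of -1.14, and marks none of the other 6 genes. Its score named Probability was 0.984 for Tp53inp1 and 0.985 for Mdm2, whose log2 ratio there was -0.83.

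Ccng1 (Entrez gene 25405) did not separate the groups. It stood at 98.3, 46.1 and 53.3 CPM in PBS and at 81.0, 57.1 and 66.3 CPM in PHZ libraries. In both groups the library numbered 1 was the highest, at 1.98 times the mean of the other libraries in PBS and 1.31 times in PHZ. The log2 fold change was 0.049 (SE 0.31, 95% interval -0.69 to 0.78; edgeR adjusted p = 0.923), and its sign was negative in 6 of 18 alternatives, upper-quartile scaling among them. Without PBS replicate 1 the estimate was 0.46 (edgeR adjusted p = 0.148). The interval spans changes from 0.622-fold to 1.72-fold.

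Sesn1 (Entrez gene 294518) was the steadiest target in PBS rats, at 30.3, 26.1 and 28.0 CPM, and it stood at 21.6, 35.5 and 27.7 CPM in PHZ libraries. Of the PHZ values 1 lay below, 1 within and 1 above the PBS range. The log2 fold change was 0.0039 (SE 0.20, 95% interval -0.48 to 0.48; edgeR adjusted p = 0.991), with a sign that changed in 10 of 18 alternatives, among them DESeq2 size factors and upper-quartile scaling. A change beyond 1.40-fold in either direction was outside the interval.

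Phlda3 and Zmat3 were near the lower end of detection. Phlda3 (Entrez gene 363989) had 17 to 61 counts per library, or 3.71, 0.990 and 2.16 CPM in PBS and 1.71, 1.19 and 1.38 CPM in PHZ libraries. The PHZ values lay inside the PBS range. Its log2 fold change was -0.68 with a wide interval of -1.93 to 0.58 (edgeR adjusted p = 0.398), and -0.14 without PBS replicate 1. The spread among PBS rats exceeded counting error, since the 61 counts of replicate 1 have an exact 95% Poisson interval of 46.7 to 78.4 and the 17 counts of replicate 2 one of 9.90 to 27.2. Zmat3 (Entrez gene 64394) had 31 to 74 counts, or 4.50, 2.15 and 3.01 CPM in PBS and 3.41, 2.50 and 2.38 CPM in PHZ libraries. The groups overlapped, with a log2 fold change of -0.22 (95% interval -1.12 to 0.68; edgeR adjusted p = 0.711) and of 0.10 without PBS replicate 1. Intervals from counts cover counting error only.

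**Figure D2:**
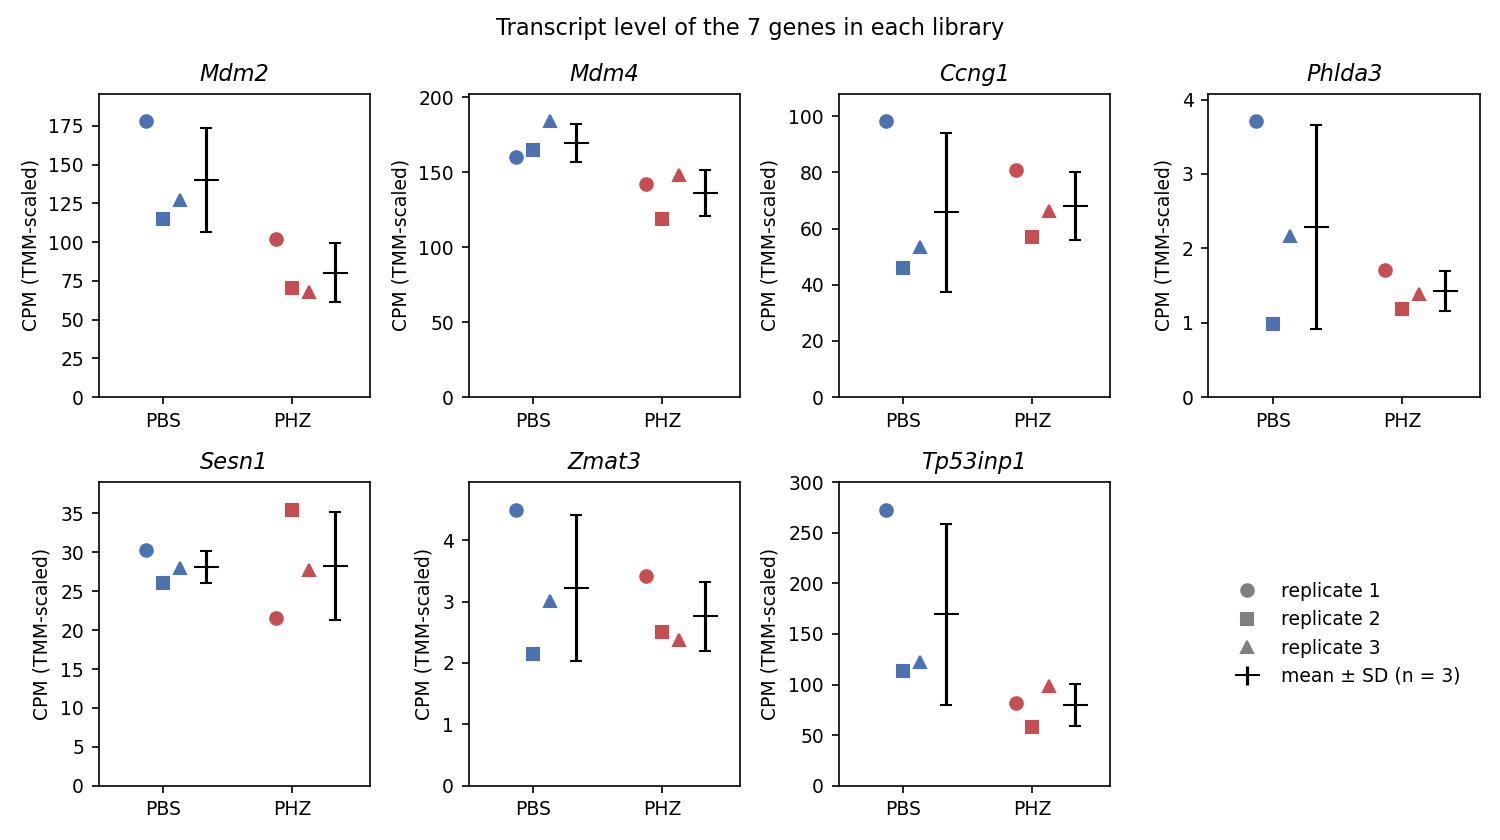
TMM-scaled CPM of each of the 7 genes (linear axes from 0) in the 3 PBS and 3 PHZ libraries, with a marker shape per replicate number and the mean ± SD beside them. Mdm2, Mdm4 and Tp53inp1 have no PHZ value within the PBS range, and PBS replicate 1 is the highest PBS library for every gene but Mdm4.

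In PBS libraries the genes fell into 3 tiers of abundance per transcript length. Mdm2 had 49.1 ± 12.4 FPKM in PBS (SD, n = 3), Tp53inp1 37.6 ± 21.0, Mdm4 25.9 ± 1.02 and Ccng1 25.7 ± 11.8 FPKM. The mean ± SD ranges of neighbours in that order overlapped, although Mdm2 exceeded Tp53inp1 in every PBS library. The mean of Tp53inp1 lay outside the narrow range of Mdm4. Sesn1 followed at 10.2 ± 1.11 FPKM, below all values of the first 4 genes in PBS, and Phlda3 at 1.59 ± 0.988 and Zmat3 at 0.437 ± 0.172 FPKM made up the lowest tier. In PHZ libraries the order of the first 4 was Mdm2 (27.6 ± 8.81 FPKM), Ccng1 (24.3 ± 7.96), Mdm4 (20.9 ± 6.37) and Tp53inp1 (17.1 ± 5.27 FPKM), again with neighbours inside their spread. Sesn1 averaged 9.95 ± 1.76 FPKM in PHZ (SD, n = 3), and in PHZ replicate 2 it exceeded Tp53inp1 (11.67 against 11.08 FPKM). The upper 2 tiers therefore overlapped in PHZ libraries. Averaged over all libraries, Mdm2 ranked above 84.7% of the genes tested and Zmat3 above 2.83%.

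PBS replicate 1 was high for most of these genes. It was the highest PBS library for 6 of 7 genes, where it was the highest for 43.2% of all genes tested, while PHZ replicate 1 was the highest PHZ library for 4 of 7, nearer to its share of 36.9% of all genes. In PBS, replicate 1 exceeded the mean of the others 2.35 times for Phlda3, 1.74 times for Zmat3 and 1.47 times for Mdm2, but it stood at 0.915 times for Mdm4 and 1.12 times for Sesn1. PHZ replicate 1 ran from 0.683 times the mean of the other PHZ libraries for Sesn1 and 1.05 times for Tp53inp1 to 1.47 times for Mdm2. PBS replicate 1 also had the highest summed level of 5 monocyte and macrophage markers (1706 FPKM, against 617 and 586 in the other PBS libraries and 521 to 845 in PHZ) and of 6 stromal and endothelial markers (204 FPKM, against 32.7 and 28.7, and 10.3 to 19.7 in PHZ). All 11 of those markers were detected in that library, and Col1a2 and Cdh5 were at 0 in at least 1 PHZ library. The neutrophil sum was lower in PBS replicate 1 (22239 FPKM) than in the other PBS libraries (34394 and 46553 FPKM). The part of these cells in the levels of the 7 genes was not tested. Replicate 1 was also the only PBS library with Eif2s3y, so within PBS its high levels cannot be told apart from sex. PBS replicate 1 is also 1 of the 3 libraries that go against their sex label, and without those 3, which leaves 1 PBS and 2 PHZ libraries, the log2 fold change was -0.57 for Mdm2 and -0.81 for Tp53inp1. That fit has 1 residual degree of freedom, so its p-values say nothing about stability.

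**Figure D3:**
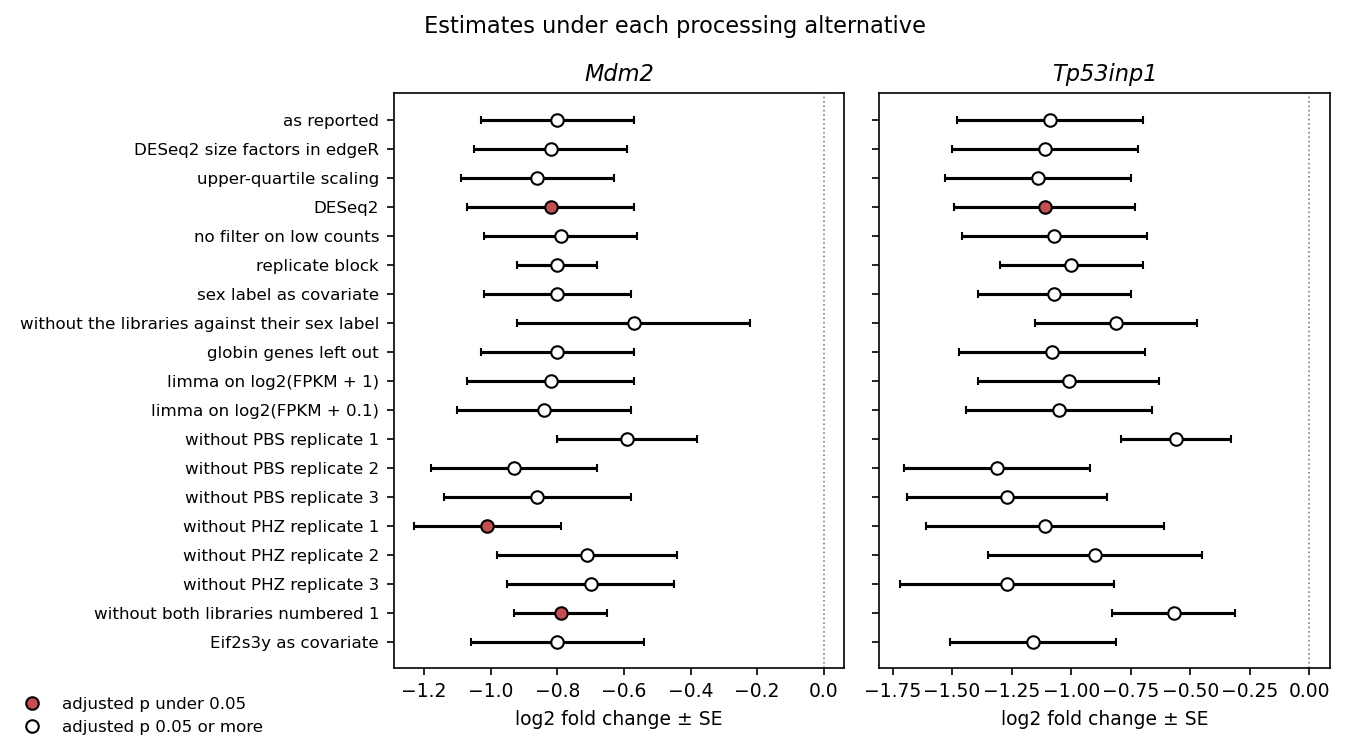
Log2 fold change of Mdm2 and Tp53inp1 with its SE as reported and under each of 18 alternatives, filled where the adjusted p was under 0.05. All estimates lie below 0, from -1.01 to -0.57 for Mdm2 and from -1.31 to -0.56 for Tp53inp1.

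Genes of the same families as the members included several that fell. Of 9 relatives 7 were listed and 6 were tested, and 4 of the 6 fell (edgeR), where 4.17% of all genes tested fell. This count was added after the data were seen. The falls stood beside those of the B and T lineage markers given above, Pax5, Blnk and Cd3e among them with log2 fold changes of -1.84, -1.68 and -3.18, and the part of these cells in the levels of the relatives was not tested. The relatives that fell were Ccng2, cyclin G2, a target of FOXO factors and an inhibitor of proliferation; Sesn3, sestrin 3, also a FOXO target; Phlda1, a pleckstrin-like protein; and Tp53inp2, a protein of autophagy. Phlda1 fell 2.88-fold, from 92.1, 92.3 and 66.2 CPM in PBS to 25.8, 25.1 and 36.1 CPM in PHZ libraries (edgeR adjusted p = 0.0181). Tp53inp2 fell 2.63-fold, from 47.8, 89.9 and 92.8 CPM to 35.6, 23.3 and 28.7 CPM (edgeR adjusted p = 0.0324). The lowest PBS value of Tp53inp2 was that of replicate 1, the library in which Tp53inp1 was highest. Sesn3 fell 1.92-fold, from 72.7, 60.1 and 63.1 CPM to 35.1, 27.5 and 39.5 CPM (edgeR adjusted p = 0.0238), and Ccng2 fell 1.80-fold, from 50.6, 59.2 and 59.6 CPM to 35.9, 27.1 and 30.8 CPM (edgeR adjusted p = 0.0235). PBS and PHZ values overlapped for none of the 4, nor for any of the 6 tested relatives, 5 of which were lower in PHZ. Of all genes tested, 41.7% did not overlap, 19.2% with the lower values in PHZ.

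The other relatives tested were not called. Sesn2, a sestrin induced by several stresses and also in the list of arrest and growth targets, averaged 29.7 ± 3.99 CPM with PBS and 20.6 ± 3.97 CPM with PHZ (SD, n = 3; edgeR adjusted p = 0.103), and Zmat2, a splicing factor gene, averaged 57.3 ± 6.42 and 81.5 ± 13.8 CPM (edgeR adjusted p = 0.0825). Phlda2 did not pass the filter, at a mean of 0.503 FPKM. To test whether a member and its relative differed in their change, the log2 ratio of the pair was compared between groups over 6 pairs that were chosen after the values were seen. The level of Ccng1 over Ccng2 was 1.96-fold higher in PHZ, that of Sesn1 over Sesn3 1.90-fold and that of Sesn1 over Sesn2 1.43-fold, each with no overlap of the groups (exact permutation test, two-sided, p = 0.1 each, the smallest possible, and 0.200 after Benjamini-Hochberg adjustment over the 6 pairs). The other 3 pairs overlapped between groups, with an exact permutation p of 0.200 for Phlda3 over Phlda1 and for Zmat3 over Zmat2 and of 0.600 for Tp53inp1 over Tp53inp2.

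**Figure D4:**
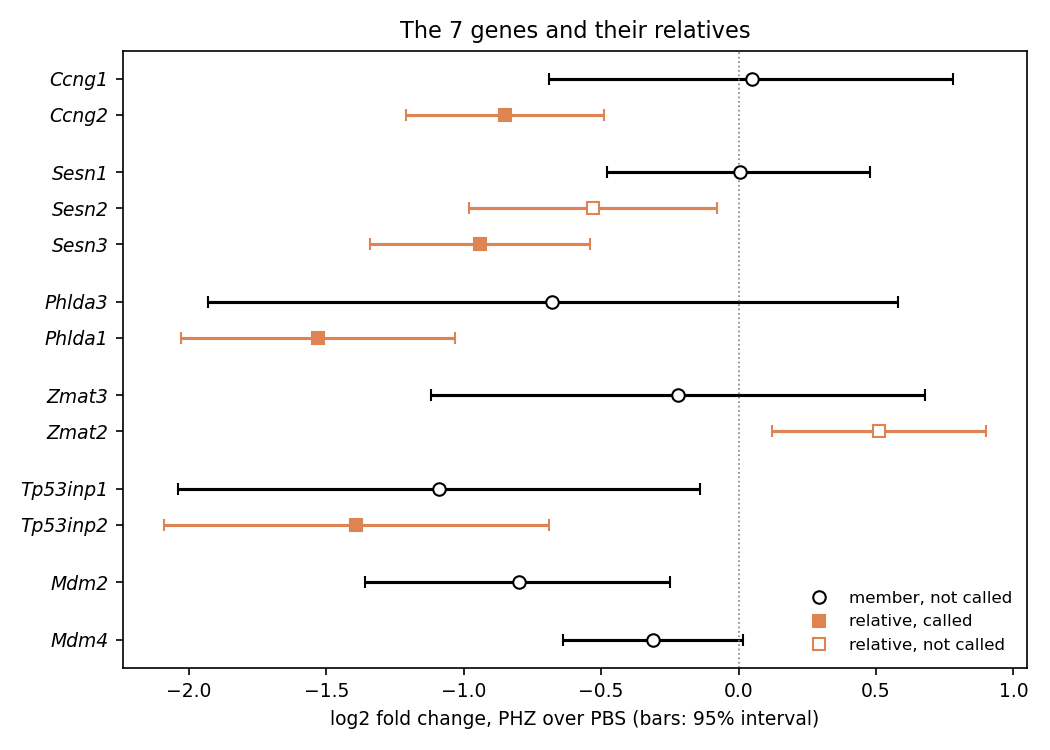
Log2 fold change of PHZ over PBS with its 95% interval for the 7 genes (circles) and their 6 tested relatives (squares, filled where called). The intervals of Ccng2, Sesn3, Phlda1 and Tp53inp2 lie wholly below 0, as do those of Mdm2, Tp53inp1 and Sesn2, which were not called after adjustment.

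The wider network was described from 60 other genes, of which 52 were listed and 51 tested. Of these 9 rose and 2 fell, where 8.99% of all genes tested rose and 4.17% fell, and their median log2 fold change was 0.078. Genes for regulators of p53 and genes transcribed by it differed in their medians. The 20 tested regulators had a median log2 fold change of 0.32, with 6 that rose and none that fell (edgeR). The 31 tested targets had a median of -0.42, with 3 that rose and 2 that fell. At an unadjusted p under 0.05 (edgeR) there were 10 of the 20 regulators and 16 of the 31 targets, against 34.1% of all genes. The difference between these medians was not tested, nor was the part of the erythroid and lymphoid cells whose markers differed between the groups.

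Among ubiquitin ligases, deubiquitinases and partners that act on p53 or MDM2, 4 of 8 tested genes rose. Usp10, a deubiquitinase that stabilises p53 in the cytoplasm, rose 2.06-fold from 51.2, 46.8 and 45.1 CPM in PBS to 97.0, 103 and 94.4 CPM in PHZ libraries (edgeR adjusted p = 0.0154). Usp7, which removes ubiquitin from both MDM2 and p53 and was the most abundant of this list per length, rose 1.73-fold from 268, 215 and 261 CPM to 338, 521 and 426 CPM (edgeR adjusted p = 0.0463). Ube4b, which extends ubiquitin chains on p53 together with MDM2, rose 1.61-fold (edgeR adjusted p = 0.0217) and Rchy1, another p53 ubiquitin ligase, 1.49-fold (edgeR adjusted p = 0.0419). Of the 4, Usp10 was called in 14 of 18 alternatives, Ube4b in 11, Usp7 in 7 and Rchy1 in 6, and Usp7 was called under neither of the other edgeR scalings. The products of these genes act on p53 in opposite directions.

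Among kinases, acetyltransferases, a deacetylase and a phosphatase that act on p53, 2 of 7 tested genes rose. They were the checkpoint kinase genes Chek1, with a mean of 20.6 ± 1.03 CPM in PBS and of 32.0 ± 1.33 CPM in PHZ (SD, n = 3) at an edgeR adjusted p of 0.0260, and Chek2, with 19.6 ± 0.605 and 29.4 ± 0.722 CPM at 0.0297. Ppm1d, the phosphatase that switches the damage response off, itself a p53 target and the most abundant of the list per length, averaged 67.3 ± 3.89 CPM with PBS and 86.2 ± 15.8 CPM with PHZ and was not called (edgeR adjusted p = 0.168). None of 5 genes for ribosomal and nucleolar proteins that bind MDM2 or p53 was called (edgeR; 1 at an unadjusted p under 0.05 and median log2 fold change 0.32). Rpl23, the most abundant of them per length, had 809 FPKM in PBS and 977 FPKM in PHZ libraries (edgeR adjusted p = 0.167).

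Among the 31 tested targets of p53, 3 rose and 2 fell (edgeR), where 8.99% of all genes tested rose and 4.17% fell. Of 6 tested genes of cell cycle arrest and growth control, 1 rose, Gtse1, a mitotic protein that removes p53 from the nucleus, from 29.3, 35.1 and 33.4 CPM to 52.0, 65.6 and 60.8 CPM (1.82-fold; edgeR adjusted p = 0.0218). The other 5 had estimates below 0 and were not called, and Gadd45a, the most abundant per length, had 446, 692 and 536 CPM in PBS and 305, 381 and 404 CPM in PHZ libraries (edgeR adjusted p = 0.0905). Of 5 tested genes of DNA repair and nucleotide supply 1 fell, Rrm2b, a ribonucleotide reductase subunit that supplies nucleotides outside S phase (19.1, 23.2 and 21.4 CPM in PBS, 12.9, 10.6 and 13.4 CPM in PHZ; edgeR adjusted p = 0.0312). Polh, a polymerase that copies damaged DNA and the most abundant of that list per length, averaged 22.2 ± 1.73 and 27.6 ± 3.99 CPM (SD, n = 3; edgeR adjusted p = 0.202).

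Of 11 tested target genes of cell death 1 rose, Triap1, an inhibitor of apoptosis, 1.71-fold to a mean of 38.3 ± 5.14 CPM against 22.4 ± 4.47 CPM in PBS (SD, n = 3) at an edgeR adjusted p of 0.0438. Bax, the pore-forming effector of apoptosis and the most abundant of the list per length, had 21.9, 19.3 and 16.4 CPM in PBS and 31.0, 32.3 and 25.5 CPM in PHZ libraries and missed the threshold (edgeR adjusted p = 0.0546). Of 9 other targets 1 rose and 1 fell, where 8.99% of all genes tested rose and 4.17% fell. Rps27l, a ribosomal protein variant, rose 2.04-fold from 37.7, 27.9 and 31.1 CPM to 63.7, 79.5 and 54.2 CPM (edgeR adjusted p = 0.0250). Tp53i11, a membrane protein induced in p53-driven cell death, fell 2.98-fold from 20.0, 21.8 and 19.3 CPM to 6.07, 5.43 and 9.04 CPM (edgeR adjusted p = 0.0190). Cd82, a tetraspanin and the most abundant of these per length, averaged 305 ± 45.7 and 429 ± 61.1 CPM (SD, n = 3; edgeR adjusted p = 0.102).

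Without PBS replicate 2 or PBS replicate 3 none of these 11 genes or of the 4 relatives was called, as was no gene of the whole table, and their direction was the same in all 18 alternatives, which non-overlapping groups give whichever library is left out. Without PBS replicate 1, 10 of the network genes and 4 of the relatives were called. Without PHZ replicate 2 the numbers were 1 and 0, and without PHZ replicate 3 they were 3 and 2. Without PHZ replicate 1 they were 10 and 4. Calls over all genes tested were 266 of 13919 without PHZ replicate 2 and 572 of 13955 without PHZ replicate 3. They were 1744 of 13780 without PBS replicate 1 and 1742 of 13811 without PHZ replicate 1. Of the network genes outside the ubiquitin list, Tp53i11 was called in 13 of the 18 alternatives, Rps27l in 12 and Gtse1 in 11. Chek1 was called in 9, and Chek2, Rrm2b and Triap1 in 8 each.

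**Figure D5:**
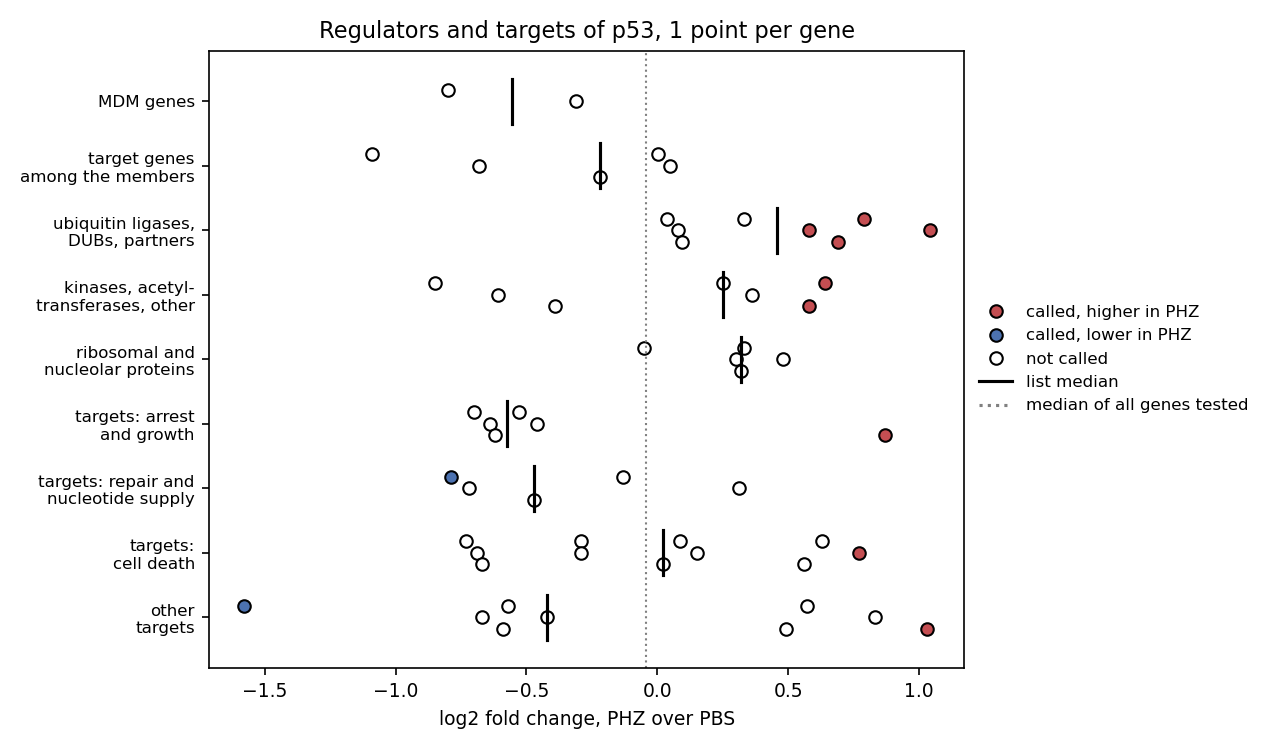
Log2 fold change of PHZ over PBS for the 7 members (top 2 rows) and the tested genes of 7 lists of p53 regulators and targets, 1 point per gene, with list medians as black bars and the median of all genes tested as a dotted line at -0.042. The 4 filled points of the third row are the called ubiquitin pathway genes, and most arrest and growth targets lie below 0 without being called.

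The genes whose profile over the 6 libraries was most like that of Mdm2 were Abcg3l3, Plk3 and Cisd3, measured as the root mean square difference between log2 CPM profiles centred on their own mean (0.0775, 0.0780 and 0.0810 log2 units, ranks 1 to 3 of 13546 genes). Plk3, a polo-like kinase gene that was also in the list of arrest and growth targets, stood at 49.9, 33.5 and 34.3 CPM in PBS and at 29.2, 22.2 and 21.1 CPM in PHZ libraries (edgeR adjusted p = 0.0756). Abcg3l3 and Cisd3 were at 3.46 and 3.06 CPM in PBS, levels at which counting error is larger. Of the members, Zmat3 was nearest to Mdm2 (rank 1217) and Sesn1 the farthest (rank 5847). Mdm4 had rank 1930.

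The mean transcript length that the authors assigned to a gene varied between libraries for the members with several transcripts. That of Mdm4, with 2 transcripts, ran from 5672 bases in PHZ replicate 1 to 7243 bases in PHZ replicate 2, a range of 27.7%, while that of Mdm2, with 3 transcripts, ranged over 2.98%. The Mdm4 lengths of the groups overlapped (exact permutation test, two-sided, p = 1.00). The lengths of Ccng1 were 2640 to 2709 bases in PBS and 2734 to 3039 bases in PHZ libraries and did not overlap (exact permutation test, two-sided, p = 0.1, the smallest possible). A longer mean length lowers the FPKM of a gene for the same count, and in PHZ replicate 1 Mdm4 had the highest FPKM of all libraries (27.28) but not the highest CPM (142). Which transcripts these are was not analysed here.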

How the data were processed

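Tools listed in the submitters' processing notes are RSEM, HISAT and GATK, and the genome build is rn6; no source used here gives their roles, versions or settings. The authors deposited, per the file headers, an expected count (an estimated count, 72.8% to 74.1% of them whole), an FPKM value and a mean transcript length per gene and library, and a comparison of the groups with mean FPKM, a log2 ratio and a score named Probability. A gene not listed in a library was set to 0. Symbols are those of the authors' deposited table.

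Expected counts were rounded and tested in R 4.3.3 by the quasi-likelihood test of edgeR 4.0.16 with TMM factors, a filterByExpr filter and a robust fit, treatment being the only term, and with Benjamini-Hochberg adjustment over 13547 genes and calls at an adjusted p under 0.05. CPM values are TMM-scaled. DESeq2 1.42.0, limma 3.58.1 on log2(FPKM + 1) and log2(FPKM + 0.1), other scalings, covariates and left-out libraries were alternatives. The edgeR script was tested on simulated data. Replicates differed by more than sampling noise (chi-square per degree of freedom 49.0 to 184), so none were merged. Each group is 3 rats, which leaves 4 residual degrees of freedom. The members and lists were chosen with earlier results of these data known. Named were the 7 members, called list genes, the gene with the highest mean FPKM of each list, all listed relatives, and the 3 genes with profiles nearest to Mdm2. The summary of the B lineage marker list is not reported here.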

Additional observations from a re-analysis of the deposited data

How the results depend on the processing

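Mdm2, Mdm4, Phlda3 and Tp53inp1 kept a negative estimate in all 18 alternatives. Mdm2 passed the threshold with DESeq2 (-0.82), without PHZ replicate 1 (-1.01) and without both libraries numbered 1 (-0.79), and Tp53inp1 with DESeq2 (-1.11). Leaving out 1 library at a time gave -1.01 to -0.59 for Mdm2, -0.15 to 0.46 for Ccng1, -0.19 to 0.17 for Sesn1 and -0.44 to 0.10 for Zmat3. Ccng1 turned negative with upper-quartile scaling (-0.0042) and with limma (-0.041 with either pseudocount). Sesn1 turned negative with DESeq2 size factors (-0.0092), upper-quartile scaling (-0.052), DESeq2 (-0.0098), the replicate block (-0.022), the sex label as a covariate (-0.017), limma (-0.034 with 1 FPKM and -0.038 with 0.1 FPKM added) and Eif2s3y as a covariate (-0.13). The Mdm2 to Mdm4 ratio kept its direction in all 10 alternatives.

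Against 1783 genes called as reported, DESeq2 called 3476, the sex covariate 928, Eif2s3y as a covariate 435, and the fit without both libraries numbered 1 called 2920. Against 11 network genes these settings called 20 (12 higher and 8 lower), 6, 2 and 16, and limma gave 7 with either pseudocount. No gene was called with the replicate block (0 of all genes, of the network and of the relatives; 4641 genes at an unadjusted p under 0.05) or without the libraries against their sex label (0 in each; 1480 at an unadjusted p under 0.05), a fit of 1 PBS against 2 PHZ libraries whose counts say nothing about stability. Leaving out 1 library gave 0 to 1744 genes in all, 0 to 10 network genes and 0 to 4 relatives. The causes were not tested.

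Correlations across genes did not settle whether the replicate numbers pair the libraries. Deviations of same-numbered libraries from their group means correlated at 0.213, 0.0573 and 0.00452 across genes. Those numbered 1 correlated best with their own number, and those numbered 2 and 3 did not. With the replicate block Mdm2 had an edgeR adjusted p of 0.0555. The ratio had an exact sign-flip p of 0.250, the smallest that 3 pairs can give. Fits without both libraries numbered 1, with Eif2s3y, and the counts of called relatives were chosen after seeing the data. Phlda3 and Zmat3 had 17 to 74 counts per library, and their coefficients of variation in PBS were 59.6% and 36.8%, where counting alone gives 16.4% and 13.8%.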
